A study of Mus musculus with 8 samples.

Results

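Calcium handling by the sarcoplasmic reticulum was examined through 10 genes, Atp2a2, Pln, Ryr2, Casq2, Slc8a1, Camk2d, Trdn, Jph2, Hrc and Asph. Members were the probes whose only gene symbol in the platform annotation was one of these names. This gave 15 of 33600 probes and 9 of 13661 genes on the array. Slc8a1, the sodium-calcium exchanger, had no probe of that kind and was not analysed here. RNA came from whole hearts of C57Bl/6 mice 8 to 10 weeks old. The 4 infarcted hearts had a permanent ligation of a left coronary branch (the descending one), and the 4 sham control hearts had the suture passed but left untied. All mice had the same anaesthesia and chest surgery, and the sources used here give no time from surgery to collection. Each heart had its own spotted array of 70-mer oligonucleotides, and an RNA pool of adult mouse tissues carried the second dye.

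A heartbeat depends on calcium that is released from the sarcoplasmic reticulum and pumped back into it. Calcium entering through surface channels opens the ryanodine receptor, the release channel that faces those channels across a narrow cleft called the dyad. The calcium pump SERCA2a then refills the store, under the brake of phospholamban, while calsequestrin holds calcium inside. Lower pump activity and leaky release channels are well-known features of the failing heart.

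Levels below are the deposited log2 signals of 1 channel, scaled so that each block of 700 neighbouring spots on an array has its median at 0. The heart channel is assumed. A level of 0 is the median spot of a block, and levels of different probes cannot be set against each other as amounts of RNA. Grouping by level below only sets together features of similar signal relative to their blocks. Between 19704 and 24819 probes had a value on a sham array, and between 21916 and 23655 on an infarcted array. Bright signals were more frequent in sham hearts, where 144 to 320 probes per array exceeded 32768 scanner units, against 23 to 91 in infarcted hearts. Of 14 heart muscle markers 13 were on the array and 5 could be tested. Their changes were negative for 4 and positive for 1, from -1.11 (Mybpc3) to 0.12 (Ttn). None passed (limma, adjusted p under 0.05), and 3 of 5 had an unadjusted p under 0.05. The 8 untested markers on the array had values on at most 2 sham arrays each. Tcap had no value on any array and Myl3 and Mb none on a sham array. Of the tested markers, Csrp3 lay at 5.97 to 6.41 in sham and 5.03 to 5.36 in infarcted hearts. Ckm lay at 6.28 to 7.01 in sham and 5.75 to 6.25 in infarcted hearts. Their groups did not overlap, which held for 8.89% of all features, and those of Mybpc3, Ldb3 and Ttn overlapped. The mean level of the 3 heart muscle markers with 8 values ran from 4.65 to 5.14 in sham and from 4.26 to 4.71 in infarcted hearts, so the groups overlapped. For 10 macrophage and monocyte markers, all tested and 9 of them with a positive change, that mean ran from 0.22 to 0.76 in sham and from 1.09 to 1.60 in infarcted hearts, so the groups did not overlap. None of the 10 passed, and 6 had an unadjusted p under 0.05. In whole hearts fewer muscle cells and less RNA per cell cannot be told apart, and the part of cell makeup in the results below was not tested.

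None of the 8 testable members passed the threshold between infarcted and sham hearts (limma, Benjamini-Hochberg adjusted p under 0.05 over 18044 features), where 0.549% of all features did. At an unadjusted p under 0.05 the count was 1 of 8, Jph2, against 12.3% of all features. Jph2 was also the 1 member whose groups did not overlap. Among all features 8.89% had groups that did not overlap, 6.27% with infarcted hearts lower. Over the 8 tested members 5 changes were negative and 3 positive, with a median of -0.21, while 57.5% of all features had a negative change and the median over all features was -0.08. The median of the members was -0.13 when genes with probes complete on 8 arrays were read from those probes alone. It was 0.29 after quantile normalization and 0.27 after cyclic loess, so its direction depended on the scaling. Atp2a2 had no value on any sham array and could not be tested.

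**Figure D1:**
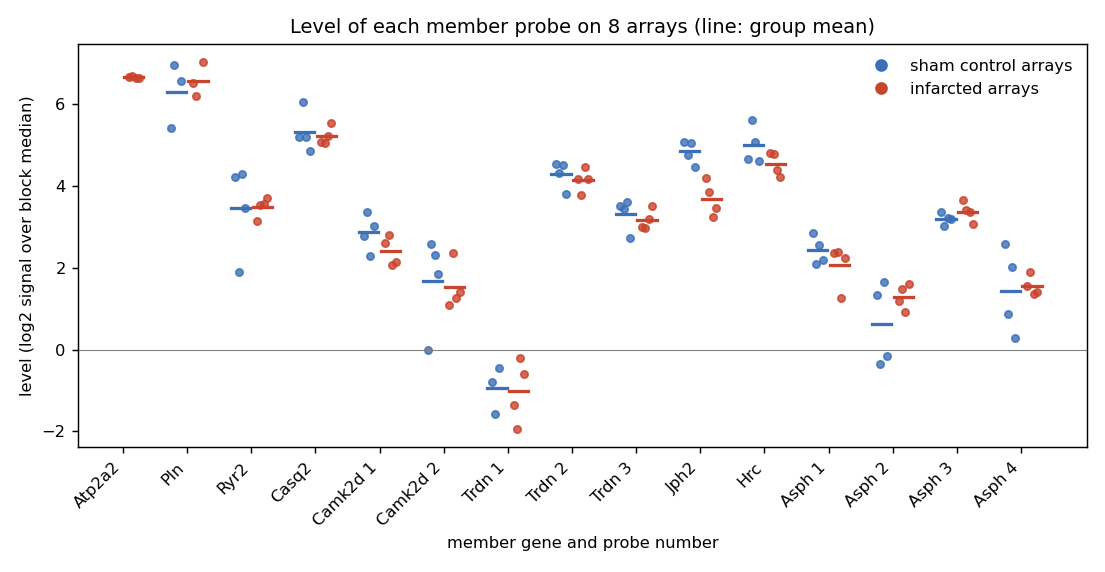
Level (log2 signal over the block median) of each of the 15 member probes on 4 sham control and 4 infarcted arrays, with a line at each group mean. The 4 infarcted points of Jph2 lie below its 4 sham points, the groups of the other probes with values in both overlap, and Atp2a2 has infarcted points alone.

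Atp2a2 encodes SERCA2, the pump that returns calcium to the sarcoplasmic reticulum. Its 1 probe had levels of 6.66, 6.68, 6.64 and 6.64 on infarcted replicates 1 to 4 and no value on the 4 sham arrays. The 4 infarcted levels lay closer together than those of any other member probe, with an SD of 0.02 (n = 4). Before block scaling the signals were 47175, 41365, 47550 and 33520, and the highest signal of any array was 65466. No fold is given, because bright probes lacked values mainly on the sham arrays. For the 1073 probes that exceeded 20000 scanner units anywhere, the sham arrays lacked 190 values and the infarcted arrays 38. Of these probes 6 had values on all 4 infarcted arrays and on no sham array, and 0 had the opposite pattern. They were a probe each of Atp2a2, Cox6a2, Atp5b, Fabp3 and Actc1 and a probe without a gene name here. The second Actc1 probe had a value on 1 sham array. These 5 companions were singled out after their values were seen.

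Pln encodes phospholamban, the small membrane protein that slows SERCA2 until it is phosphorylated. Its level was 5.40, 6.94 and 6.56 on sham control replicates 1, 2 and 4 and 6.51, 6.18 and 7.01 on infarcted replicates 1, 2 and 4. Replicate 3 of each group had no value, and sham replicate 1 was the lowest of the arrays with one. The groups overlapped, with a change of 0.27 ± 0.44 (log2, SE, limma adjusted p = 0.86, n = 3 each) and a 95% interval from -0.75 to 1.29. The signals behind these levels reached 63035 on sham replicate 2, near the top of the scanner range, so the missing values on replicate 3 cannot be read as low or high. After quantile normalization and cyclic loess the change was 0.91 ± 0.41 and 1.31 ± 0.47 (adjusted p = 0.529 and 0.335). Mean signals before block scaling went the other way, 49540 in sham and 44255 in infarcted hearts.

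**Figure D2:**
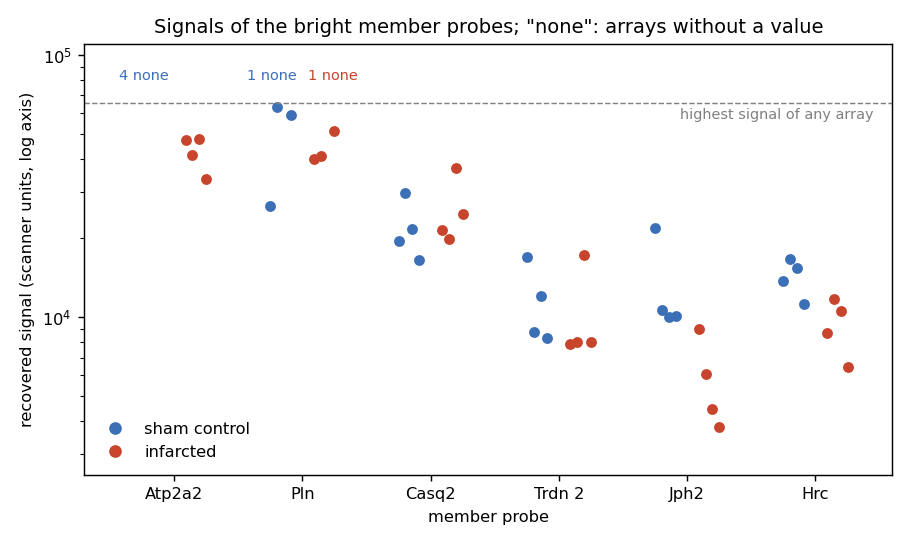
Recovered signal in scanner units (log axis) of the 6 member probes that exceeded 10000 on at least 1 array, with sham control and infarcted arrays apart and the number of arrays without a value written above. Atp2a2 has 4 infarcted signals from 33520 to 47550 and no sham signal, Pln lacks 1 array in each group, and the dashed line marks 65466.

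The release channel itself is encoded by Ryr2. Its levels were 4.22, 1.89, 4.29 and 3.45 on sham control replicates 1 to 4 and 3.13, 3.52, 3.57 and 3.70 on infarcted replicates 1 to 4. Sham replicate 2 stood low, and the infarcted values lay inside the sham range. The change was 0.02 ± 0.48 (SE, limma adjusted p = 0.994) with a 95% interval from -1.06 to 1.09, so a shift of 1 log2 unit either way lies within it. Without sham replicate 2 the change was -0.51 ± 0.28 (adjusted p = 0.43).

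Trdn encodes triadin, which links the release channel to calsequestrin inside the store. It had 3 probes. Probe 2 had 4.54, 4.31, 4.51 and 3.80 on sham replicates 1 to 4 and 4.16, 3.76, 4.46 and 4.17 on infarcted replicates 1 to 4. Probe 3 ran from 2.73 to 3.59 in sham and from 2.97 to 3.51 in infarcted hearts, and probe 1 lay below the block median on every array with a value. The groups overlapped for all 3, with changes of -0.08 ± 0.45, -0.15 ± 0.25 and -0.15 ± 0.26 for probes 1 to 3 (SE, limma at the level of single probes, adjusted p = 0.965, 0.861 and 0.865). The mean over probes gave a larger value, -0.48 ± 0.31 (adjusted p = 0.597), because probe 1 had no value on sham replicate 4, which raised the mean on that array. With probes complete on 8 arrays the change of the gene was -0.15.

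Asph encodes aspartate beta-hydroxylase and, through other transcripts of the same gene, junctin, a partner of triadin at the release channel. Which of these transcripts each of the 4 probes detects was not resolved here. Probe 3 had levels of 3.35, 3.02, 3.22 and 3.20 on sham replicates 1 to 4 and 3.64, 3.40, 3.35 and 3.07 on infarcted replicates 1 to 4, a change of 0.17 ± 0.21 (SE, single-probe limma fit, adjusted p = 0.813). Probes 2 and 4 were split within the sham group. Probe 2 stood at -0.34 and -0.16 on sham replicates 2 and 4 and at 1.34 and 1.65 on replicates 1 and 3, and probe 4 stood at 0.87 and 0.29 on the former and at 2.57 and 2.02 on the latter. Sham replicates 2 and 4 were also the sham arrays with the fewest values. The probes disagreed in direction, with changes of -0.36, 0.67 and 0.12 for probes 1, 2 and 4, and none passed (adjusted p = 0.699, 0.604 and 0.948; 0.764% of 20561 probes tested singly did). Probe 1 stood low at 1.26 on infarcted replicate 3. Without that array its change was -0.09 ± 0.27 (SE, single-probe limma fit, adjusted p = 0.956). Averaged over its probes, Asph changed by 0.15 ± 0.32 (adjusted p = 0.897), and by -0.02 and -0.03 without sham replicate 2 or 4.

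Jph2, junctophilin 2, holds the sarcoplasmic reticulum close to the surface membrane at the dyad, and loss of it is known to separate the 2 membranes. It had the lowest p among the members. Levels were 5.08, 4.76, 5.04 and 4.46 on sham replicates 1 to 4 and 4.19, 3.85, 3.24 and 3.46 on infarcted replicates 1 to 4. Every infarcted array lay below every sham array, and the same held for the unscaled signals, which were 9996 to 21837 in sham and 3791 to 9018 in infarcted hearts. The change was -1.15 ± 0.27 (SE, limma adjusted p = 0.105), with group means of 4.84 ± 0.29 and 3.68 ± 0.42 (SD, n = 4 each) and a 95% interval from -1.76 to -0.55. The adjusted p missed the threshold, although the difference exceeded the spread within both groups. Without sham replicate 4 the change was -1.28 ± 0.28 and passed (adjusted p = 0.04). In that refit 615 features passed, against 99 with all 8 arrays. With any other single array left out Jph2 did not pass (limma adjusted p from 0.145 to 0.296). Quantile normalization and cyclic loess left -0.55 ± 0.30 and -0.57 ± 0.25 (adjusted p = 0.585 and 0.406).

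Upstream sequence was matched by symbol for 7 of the 10 member genes in RefSeq (assembly GRCm38.p6). The 250 bases before the start are shown for Jph2, whose groups were apart, and for Pln and Casq2, whose groups overlapped (Casq2, the calsequestrin of the store, is described next). Capitals mark the letters of 4 short motifs that were searched on both strands. The TATA box was searched as TATAAA. The GATA factor motif was searched as AGATAA. The E-box was searched as CAGCTG. The GC box was searched as GGGCGG.
Jph2, chr2:163397994-163398243, minus strand: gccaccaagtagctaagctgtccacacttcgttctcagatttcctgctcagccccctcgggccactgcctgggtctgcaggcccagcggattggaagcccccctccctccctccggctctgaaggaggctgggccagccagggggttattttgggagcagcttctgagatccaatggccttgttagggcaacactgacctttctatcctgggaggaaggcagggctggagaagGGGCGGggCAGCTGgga
Pln, chr10:53337436-53337685, plus strand: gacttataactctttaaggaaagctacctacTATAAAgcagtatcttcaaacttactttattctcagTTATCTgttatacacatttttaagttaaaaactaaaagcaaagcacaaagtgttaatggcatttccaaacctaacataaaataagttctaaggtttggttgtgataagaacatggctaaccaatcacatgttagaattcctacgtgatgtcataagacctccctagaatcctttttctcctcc
Casq2, chr3:102086165-102086414, plus strand: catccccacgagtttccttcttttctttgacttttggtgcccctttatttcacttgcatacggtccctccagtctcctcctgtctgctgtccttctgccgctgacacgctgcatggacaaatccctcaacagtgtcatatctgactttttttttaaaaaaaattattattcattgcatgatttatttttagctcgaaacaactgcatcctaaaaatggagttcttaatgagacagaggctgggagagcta
The Jph2 window shown held the E-box and the GC box, the Pln window held the TATA box and the GATA motif, and the Casq2 window held none of the 4 motifs. A second annotated start of Jph2 gave an overlapping window, chr2:163397974-163398223, with the same motif pair and 62.8% G and C. Of the windows not printed, that of Hrc, whose groups overlapped, held the same pair as Jph2, that of Camk2d held 3 GC boxes, that of Slc8a1 held the GATA motif and that of Ryr2 held none. Among 32851 RefSeq windows of this length, 12.4% held the TATA box, 9.99% the GATA motif, 13.0% the E-box and 32.7% the GC box. The share of G and C was 62.0% for Jph2, 32.8% for Pln and 41.6% for Casq2, against a median of 52.4%. A match describes letters, not a bound site.

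The store itself is represented by Casq2, cardiac calsequestrin, and Hrc, the histidine-rich calcium-binding protein. Casq2 had levels of 5.18, 6.05, 5.19 and 4.85 on sham replicates 1 to 4 and 5.06, 5.04, 5.22 and 5.52 on infarcted replicates 1 to 4. The infarcted values lay within the sham range, with a change of -0.11 ± 0.29 (SE, limma adjusted p = 0.918) and a 95% interval from -0.75 to 0.53. Its direction turned to 0.75 ± 0.23 after quantile normalization and 0.70 ± 0.22 after cyclic loess, neither of which passed (adjusted p = 0.307 and 0.255). Hrc had 4.64, 5.60, 5.07 and 4.61 on sham replicates 1 to 4 and 4.79, 4.77, 4.38 and 4.22 on infarcted replicates 1 to 4. The upper infarcted values overlapped the lower sham values, and the change was -0.44 ± 0.28 (adjusted p = 0.586; 95% interval -1.07 to 0.19). Hrc also turned, to 0.27 and 0.25, under quantile normalization and cyclic loess (adjusted p = 0.789 and 0.76).

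Camk2d encodes the main cardiac form of calcium/calmodulin-dependent kinase II, which phosphorylates phospholamban and the ryanodine receptor. Probe 1 had 2.77, 3.36, 2.29 and 3.02 on sham replicates 1 to 4 and 2.60, 2.81, 2.06 and 2.14 on infarcted replicates 1 to 4. The groups overlapped (-0.46 ± 0.29, SE, single-probe limma fit, adjusted p = 0.576). Probe 2 stood at -0.01 on sham replicate 1 and at 1.84 to 2.58 on the other sham arrays, with 1.09 to 2.36 in infarcted hearts, and changed by -0.15 ± 0.54 (adjusted p = 0.943). Averaged over both probes the change was -0.30 ± 0.36 (adjusted p = 0.797; 95% interval -1.10 to 0.49).

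**Figure D3:**
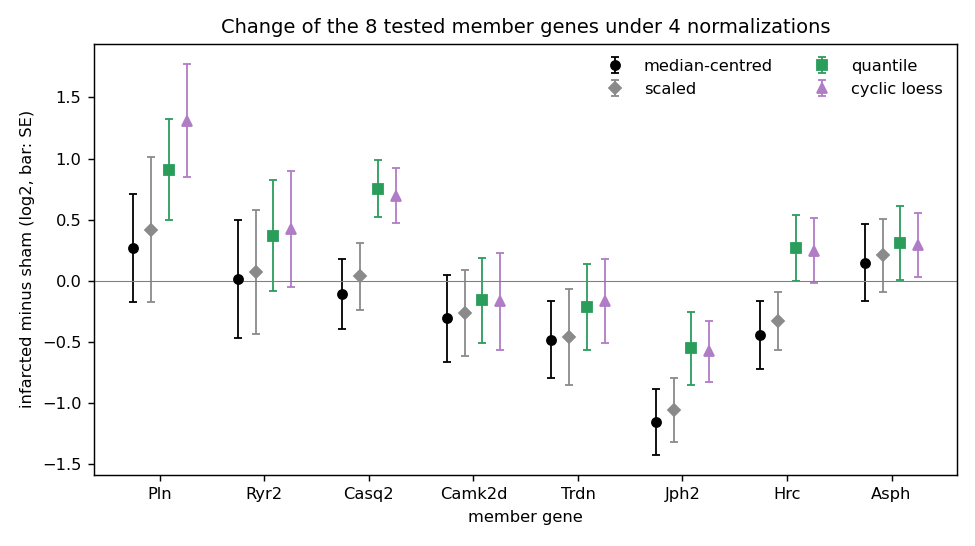
Change of the 8 tested member genes (infarcted minus sham control, log2, bars are the SE of the limma fit) under 4 ways of scaling the arrays. Jph2 lies below 0 under all 4, from -1.15 with median centring to -0.55 after quantile normalization, whereas Casq2 and Hrc change sign.

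Bright features had negative changes as a body, which bears on the members because several of them were bright. The median change was -0.62 for the 668 features with a mean level from 4 to 5 and -0.90 for the 354 features above 5, and quantile normalization left 0.02 and -0.07. Read against features within 0.5 of their own level, Jph2 had a lower change than most, with 11.2% of 697 such features below it and a median of -0.56 among them. Casq2 was higher than 94.9% of 409 features of its level (median -0.81), and Pln was higher than 96.7% of 61 (median -1.06). Hrc was higher than 73.5% of 585 features, Ryr2 than 77.8% of 890 and Asph than 74% of 2138. Trdn and Camk2d lay on the same side as Jph2, with 16.9% of 1829 and 28.4% of 1993 features below them. For Trdn this rests on the gene value, which the missing value of probe 1 on sham replicate 4 lowered. Its complete probes 2 and 3, with sham means of 4.29 and 3.32, each changed by -0.15. The median change was -0.62 for features at levels from 4 to 5 and -0.30 for those from 3 to 4. Asph was placed by the mean of 4 probes, with sham means from 0.62 to 3.20 and changes in both directions. These positions are descriptions with no test.

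**Figure D4:**
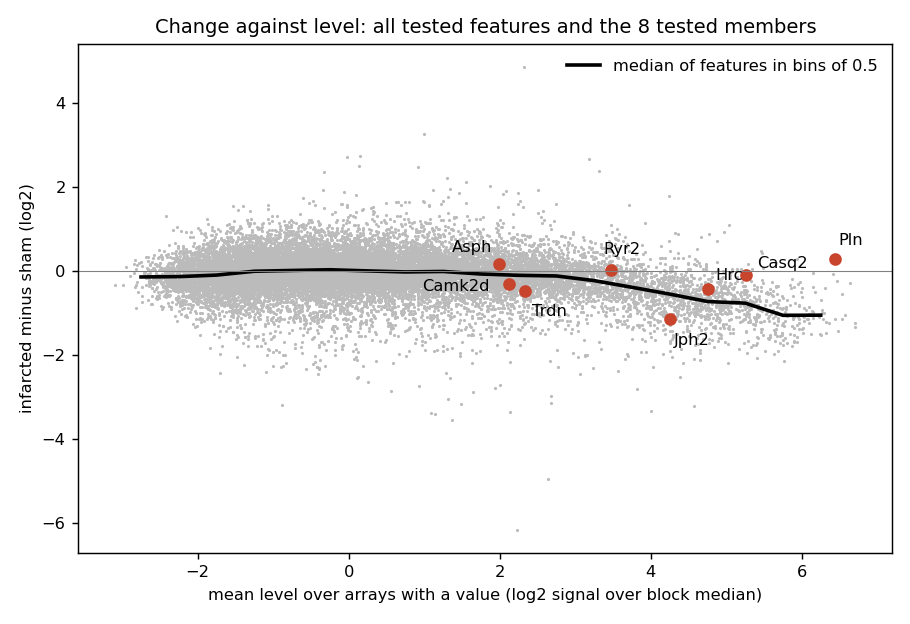
Change (infarcted minus sham control, log2) against mean level for all 18044 tested features in grey, with their median in bins of 0.5 as a line and the 8 tested members as labelled points. The line falls with level, Jph2, Trdn and Camk2d lie below it, and the other 5 members lie above it. The Trdn point is the mean over 3 probes, with a change lowered by the missing value of probe 1 on sham replicate 4. Its complete probes 2 and 3 each changed by -0.15.

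The wider calcium pathway was read from 4 lists with 76 genes, of which 53 were on the array and 48 could be tested. Again 0 passed (limma, adjusted p under 0.05), against 0.549% of all features. An unadjusted p under 0.05 was found for 4 of 48, against 12.3% of all features. Changes were negative for 30 and positive for 18, against 57.5% negative over all features. Their median was -0.10, and it turned to 0.12 after quantile normalization and 0.15 after cyclic loess. Among regulators of the pump and store proteins, 6 of 9 changes were negative (median -0.08). The smallest p belonged to Mrln, the SERCA inhibitor myoregulin (-0.42 ± 0.29, SE, adjusted p = 0.628), and Casq1, the skeletal calsequestrin (-0.64 ± 0.46, adjusted p = 0.637), both below the block median on every array with a value.

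Among partners of the release channel and other genes of the dyad 8 of 13 changes were negative (median -0.19). Calm3, one of the calmodulin genes, stood at 3.95, 3.78, 3.87 and 3.23 on sham replicates 1 to 4 and at 2.93, 1.09, 1.58 and 1.67 on infarcted replicates 1 to 4, a change of -1.89 ± 0.38 (SE, limma adjusted p = 0.0658). It passed without sham replicate 4 (-2.05, adjusted p = 0.025) or infarcted replicate 1 (-2.26, adjusted p = 0.0426). Most of this came from 1 of its 3 probes, at 4.59 and 4.37 on the 2 sham arrays with a value and at -2.37 to -1.84 on the 3 infarcted arrays with one. That probe had no value on sham replicate 4 or infarcted replicate 1, the arrays left out in these refits. Calm3 also passed without sham replicates 2 and 4 together (-2.09, limma adjusted p = 0.0333), although sham replicate 2 had a value of that probe. The 2 complete Calm3 probes changed by -0.52 and -0.35 (single-probe adjusted p = 0.466 and 0.606). With complete probes the gene changed by -0.43 (limma adjusted p = 0.504). Jph4, a junctophilin known from neurons, stood at -1.25 to -0.53 in sham and -0.36 to 0.12 in infarcted hearts (0.71 ± 0.24, adjusted p = 0.246). Its groups did not overlap and its direction was opposite to that of Jph2.

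For calcium entry and removal at the surface membrane and in mitochondria 5 of 9 changes were negative (median -0.08). Stim1, the sensor of store calcium, had 0.22 to 0.52 in sham and -0.04 to 0.11 in infarcted hearts (-0.37 ± 0.19, SE, limma adjusted p = 0.479), with no overlap. Fxyd1, phospholemman, the regulator of the sodium pump, changed by -0.39 ± 0.24 (adjusted p = 0.561) as the mean of 4 probes that disagreed. The infarcted values of 1 probe lay below its sham values (-0.82 ± 0.23, single-probe limma fit, adjusted p = 0.147), and the other 3 overlapped, with changes of -0.56, -0.29 and 0.12. Of 17 kinases, phosphatases and anchors 11 changes were negative (median -0.09). Ppp1cc, a catalytic subunit of protein phosphatase 1, stood at 2.82 to 3.45 in sham and 2.15 to 2.83 in infarcted hearts, with a narrow overlap (-0.56 ± 0.24, adjusted p = 0.385). Its 2 probes changed by -0.69, with no overlap, and by -0.42, with overlap (single-probe limma fit, adjusted p = 0.257 and 0.616). Dmpk, myotonic dystrophy protein kinase, changed by -0.36 ± 0.28 (adjusted p = 0.677), and by 0.17 and 0.16 after quantile normalization and cyclic loess.

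**Figure D5:**
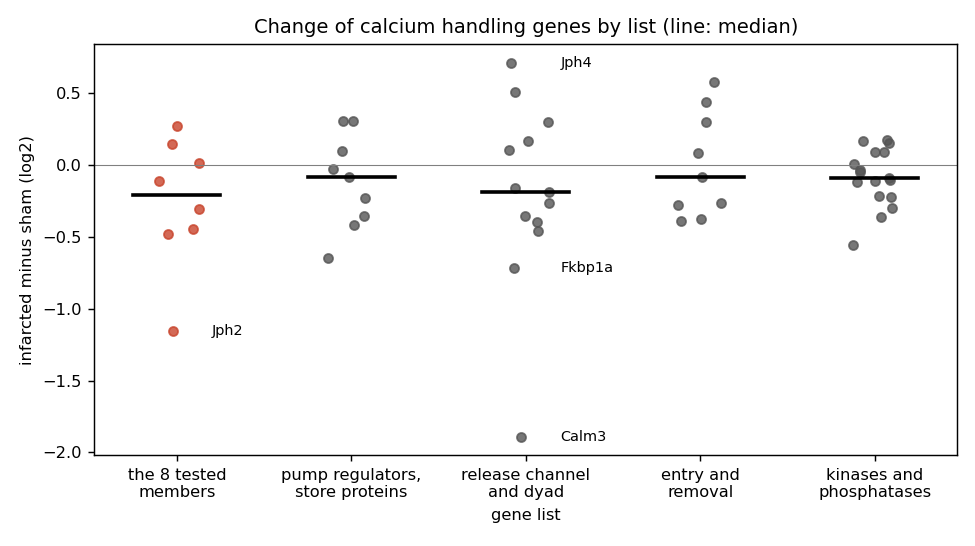
Change (infarcted minus sham control, log2) of the 8 tested members and of the tested genes of 4 calcium handling lists (9, 13, 9 and 17 genes), with a line at each median. Genes beyond 0.69 in either direction are named, and Jph2, Fkbp1a and Calm3 are the lowest.

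For the 7 members with 8 values the mean deviation from their own averages lay between 0.04 and 0.37 in sham hearts and between -0.28 and -0.08 in infarcted hearts. Of 8845 named genes with 8 values, the 3 closest to that mean profile outside the members were Ptpn9, Taf5l and Rfng, with mean absolute differences of 0.06, 0.07 and 0.08 over the 8 arrays. A mean of 7 genes is flatter than a single gene, so this measure favours genes with small deviations. The members themselves ranked from 2281 (Hrc, mean absolute difference 0.26) to 7151 (Ryr2, 0.475) among the 8845 genes. The mean profile is therefore not a pattern that the single members share.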

How the data were processed

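RNA of 4 infarcted and 4 sham control hearts was compared on 2-colour arrays, per the labels. The deposited log2 values were found to hold 1 channel, since in each of 48 blocks of 700 probes a constant per array turned them into whole signals (tolerance 0.001). The sources used here name no software, background correction or spot flags. Arrays were centred on their median (already 0). Probes of a gene were averaged. The moderated test of limma (version 3.58.1, R 4.3.3, lmFit then eBayes) covered features with 3 or more values per group, with Benjamini-Hochberg adjustment over all of them. A second fit took each probe alone. The fit was checked on simulated data with planted changes larger than that of any member. It therefore does not show how well changes of the size seen in the members would be found. Arrays came from separate hearts, whose number limits the precision. The labels name no batch. The highest correlation between replicate arrays was 0.952.

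The members and lists were chosen with earlier results of these data known. All members were named, and of each pathway list those past the threshold or else the 2 with the smallest p. Marker lists had medians of -0.69 (heart muscle, 5 genes), -0.05 (fibroblast, 9), 0.80 (macrophage, 10), -0.19 (endothelial, 8), -0.25 (smooth muscle, 5) and 0.52 (skeletal muscle, 4), with 0 genes past the threshold except 1 endothelial gene. There were 20 alternatives, of which the one leaving out 2 sham arrays was chosen after seeing the data.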

Additional observations from a re-analysis of the deposited data

Results flagged for a closer look

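For Asph probe 1 the level on infarcted replicate 3 was 1.26, apart from 2.23 to 2.39 on the other infarcted arrays. It was the 1 outlying value among 26 groups of 4 arrays examined over the member probes, and chance gives about 1 in 20.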

How the results depend on the processing

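Over 20 alternatives the number of changed features moved most. It was 99 for genes and 157 for single probes as reported, 32 and 35 after quantile normalization, and 48 and 91 after scaling. Cyclic loess gave 99 for single probes. Leaving out 1 replicate gave 3 to 615 features for genes and 3 to 690 for single probes (0 to 1 member and 0 to 1 pathway gene), and leaving out the 2 sham arrays with the fewest values gave 1106 and 1209, with 1 member (Jph2, -1.38, adjusted p = 0.0377) and 1 pathway gene (Calm3). These refits needed a value on all 3 remaining arrays of the reduced group, or on both remaining sham arrays when 2 were left out. The median change of the members was 0.29 (quantile), 0.27 (cyclic loess), -0.38 (without those 2 sham arrays) and -0.53 to -0.16 with 1 replicate left out, and that of the pathway genes 0.12, 0.15, -0.12 and -0.15 to -0.03. Directions turned for Trdn probes 2 and 3 (0.44 and 0.14 after quantile normalization, 0.42 and 0.20 after cyclic loess), Casq2 (0.75, 0.70, and 0.039 after scaling), Hrc (0.27, 0.25) and Dmpk (0.17, 0.16). Leaving out 1 replicate turned Ryr2 (range -0.51 to 0.29; without sham replicate 2 or infarcted replicate 3 or 4), Casq2 (-0.26 to 0.14; sham replicate 2), Asph (-0.030 to 0.35; sham replicates 2 and 4), Asph probe 4 (-0.27 to 0.49; the same), Camk2d probe 2 (-0.71 to 0.15; sham replicates 2 and 3) and Trdn probe 1 (-0.36 to 0.22; infarcted replicates 1 and 2). Without the 2 sham arrays they turned for Ryr2 (-0.78), Casq2 (0.025), Camk2d (0.12) and its probe 2 (0.38), Asph (-0.38), and Asph probes 2 and 4 (-0.20, -0.74). The cause was not tested. Of the member genes, Jph2 kept its direction under all alternatives and Pln under the 12 in which it could be tested. None of these 12 left out an array with a Pln value, because too few values then remained. How far the direction of Pln rests on 1 array was therefore not tested. All 12 used block-scaled values, and the mean unscaled signal of Pln was lower in infarcted hearts. The gene value of Trdn also stayed negative, but after quantile normalization and cyclic loess, where probes 2 and 3 turned, this rests on the missing value of probe 1 on sham replicate 4. No clear pairing of the arrays by replicate number was seen. The 4 correlations of deviations were 0.02, 0.31, -0.08 and -0.19, and 2 of 8 arrays correlated best with their own number. With the replicate block 1 feature passed for genes and 1 for single probes. Bright signals near the scanner's top limit Atp2a2 and Pln.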

Other observations

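The spread between arrays was larger in sham than in infarcted hearts for 7 of the 8 tested members, with a median SD of 0.56 in sham and 0.34 in infarcted hearts. The same held for 68.2% of all 18044 features and for 75.3% of the 1896 features with a mean level over 3. Whether the members differ from other features in this was not tested. The exception was Jph2, with an SD of 0.29 in sham and 0.42 in infarcted hearts. Jph1, a junctophilin known from skeletal muscle, stood at -2.16 to -0.31 in sham and -1.45 to -0.55 in infarcted hearts (-0.19 ± 0.41, SE, limma adjusted p = 0.9). The mean over 3 probes of each of Ryr1 and Ryr3, the other ryanodine receptors, stayed below 0 on every array with a value. At least 1 single Ryr1 probe stood above its block median, since a signal reached 1412 and no block median exceeded 1156. Sri (sorcin, a regulator of the release channel) had no value on any array.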
